A study of Mus musculus with 24 samples.

Results

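A set of 10 genes of the BCL2 family, the proteins that decide whether the outer mitochondrial membrane of a cell stays intact, were followed through a polysome profiling experiment in mouse pancreatic organoids. The members were chosen by gene symbol and role: Mcl1, Bcl2l1, Bcl2 and Bcl2l2 (anti-apoptotic), Bax and Bak1 (effectors), and Bid, Bcl2l11, Bbc3 and Bad (BH3-only). Of these 10 genes, 9 had an entry of their own among the 19895 entries of the expression table and all 9 were among the 11438 genes tested, those with reads in every library. Bad was listed only in a joint entry with Gpr137, a gene on the opposite strand whose exons overlap those of Bad, and its values are given as those of the joint entry.

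Ductal organoids of wildtype C57Bl/6J mice (N) and organoids of pancreatic tumours that carry p53 R172H in a Pdx1-Cre model (KP) were cultured without EGF and N-acetylcysteine and exposed for 1 h to vehicle (labelled Control) or to 10 nM CR-31 (labelled CR1-31-b), a synthetic rocaglate that inhibits the RNA helicase eIF4A. Both treatments ended with cycloheximide, which holds ribosomes on the mRNA. From each lysate, total mRNA and the mRNA bound by at least 3 ribosomes (polysome-associated mRNA) were sequenced, which gave 24 libraries from 12 lysates, 3 lysates for each of the 4 combinations of organoid and treatment. The labels number the replicates without saying whether they were separate cultures, so p-values measure the spread between these samples, and in such bulk samples fewer cells of a type and less RNA per cell cannot be told apart.

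BCL2 proteins act by binding each other. MCL1, BCL-XL (the product of Bcl2l1), BCL2 and BCL-W (Bcl2l2) hold back the effectors BAX and BAK. These effectors otherwise form pores in the mitochondrial membrane and release cytochrome c. The BH3-only proteins BID, BIM (Bcl2l11), PUMA (Bbc3) and BAD carry stress signals to the family. MCL1 is a protein with a short half-life and therefore depends on continued translation of its mRNA, and rocaglates clamp eIF4A onto stretches of purines in RNA.

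The 5′ untranslated regions (5′-UTRs) of the family differed widely in length and in their longest unbroken run of A or G bases. The Mcl1 gene lies on chr3:95658788-95663176 of GRCm38, Bax on chr7:45461697-45466898 and Bak1 on chr17:27019810-27029009. The longest purine run (capitals, with up to 4 flanking bases in lower case) is given here, 5′ to 3′ on the mRNA strand, for the member with the shortest 5′-UTR, the 3 members called between organoid types in polysome-associated mRNA, and the member with the longest 5′-UTR.
Mcl1: gtctGGAGtcgc
Bax: cggcGAGAGGcagc
Bak1: cactAGAGGGAGAAGAtgga
Bcl2l11: acgcAAGAAAAAAAGAccaa
Bcl2: ttttAGGAAAAAGAGGGGGGGcaaa

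In Mcl1 (plus strand) the longest run had 4 bases, at chr3:95658808-95658811, in a 5′-UTR of 69 bases with 73.9% GC. Among the 11259 tested genes with an annotated 5′-UTR, 95.8% had a run of at least that length, and 85.3% had a 5′-UTR at least as long. Bax (minus strand) had a 5′-UTR of 123 bases and a run of 6, at chr7:45466787-45466792, a length reached by 78.5% of genes. Bak1 (minus strand) had a 5′-UTR of 636 bases and a run of 12, at chr17:27028819-27028830, which 16.2% of genes matched or exceeded. The run of Bcl2l11 also had 12 bases, crossed an exon junction and lay 4 bases before the start codon, in a 5′-UTR of 228 bases. Bcl2 had the longest 5′-UTR of the family, 1394 bases, with a run of 17 at chr1:106714047-106714063 that 4.3% of genes reached. The median gene had a 5′-UTR of 184 bases and a longest run of 8. Mcl1 and Bax thus lay below the median on both measures and Bak1, Bcl2l11 and Bcl2 above it. The paper found no enrichment of polypurines in the 5′-UTRs of mRNAs less well translated under CR-31 in KP organoids. It reports that these 5′-UTRs were slightly shorter, richer in GC and more structured. Whether the runs listed here bear on the CR-31 response was not tested.

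Total counts ranged from 47308461 to 267463046 in polysome libraries and from 72077342 to 167384903 in total libraries. Marker genes of ductal epithelium summed to between 3580 and 8250 RPKM, reads scaled by transcript length and library size, in each library, against at most 0.143 for endocrine markers with Ins1, Ins2 and Gcg at 0, at most 0.606 for fibroblast markers and at most 4.69 for acinar markers. Immune markers summed to between 1.74 and 27.3, the highest value being that of 1 vehicle-treated KP polysome library where the others of its group had 2.44 and 2.60, and their part in the results was not tested. The KP and N libraries were sequenced on different lanes, 2 for each, and lane and organoid type cannot be told apart. The lysates of N replicate 3 stood apart. Over 11438 genes, deviations from the mean of the N libraries correlated between vehicle and CR-31 libraries of the same fraction with r = 0.82 to 0.88 in replicates 1 and 2, but with 0.31 (polysome) and 0.36 (total) in replicate 3, where the vehicle polysome library was most like the CR-31 total library (r = 0.81) and the vehicle total library like the CR-31 polysome library (r = 0.67). Whether a fraction label or a treatment label of that replicate is at odds with its library was not tested. The main results that use N organoids are therefore also given without both lysates of N replicate 3. In KP, the total libraries of replicate 1 correlated least (r = 0.23, against 0.72 and 0.83 in replicates 2 and 3). The vehicle total library of KP replicate 1 was more like the CR-31 polysome library (r = 0.56). The vehicle polysome library of that replicate was most like the CR-31 polysome library as well (r = 0.64). Lysates of KP replicate 1 were left out 1 at a time, not both together.

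The effector Bax had the highest level of the family per length of transcript, and Bcl2 the lowest. In total mRNA, median RPKM over the 12 libraries was 405 for Bax, 133 for Bcl2l1, 100.3 for the Bad and Gpr137 entry, 97.5 for Mcl1, 82.1 for Bak1, 36.8 for Bid and 24.7 for Bbc3. The 3 lowest were Bcl2l2 (9.32), Bcl2l11 (6.97) and Bcl2 (1.79). Bax ranked at percentile 98.2 of all tested genes by median RPKM of the vehicle-treated total libraries, Bcl2l1 at 95.0, Mcl1 at 92.9 and Bcl2 at 26.6. Neighbours in this order often overlapped: Mcl1 spanned 63.8 to 111.5 RPKM over the total libraries and Bak1 53.9 to 127.7, whereas the lowest Bax library (307) lay above the highest Bcl2l1 library (253).

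Polysome-associated mRNA gave nearly the same order, with medians of 471 RPKM for Bax, 152 for Bcl2l1, 95.2 for Bak1 and 86.5 for Mcl1. Of the 4 anti-apoptotic members, Bcl2l1 made up 66.5% ± 6.10 (SD, n = 3) of their summed RPKM in polysomes of vehicle-treated KP organoids and Mcl1 29.6% ± 5.61. In vehicle-treated N organoids these shares were 59.6% ± 10.2 and 35.6% ± 11.6. Bcl2 made up at most 1.33% in any library. The transcripts of BCL-XL and MCL1 thus made up nearly all of the anti-apoptotic pool in both organoid types, with Bcl2l1 above Mcl1 in the mean of every group.

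**Figure D1:**
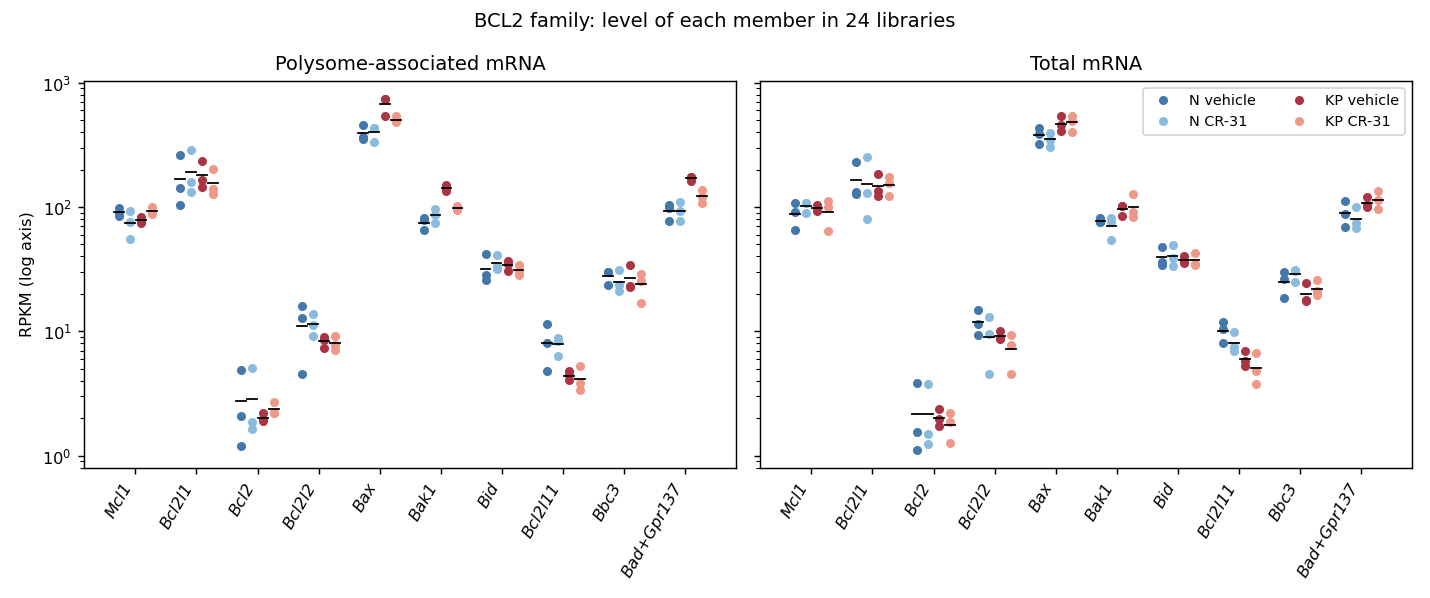
RPKM of each member (log axis) in polysome-associated (left) and total mRNA (right), 1 point per library and a line at the mean of each group of 3. Bax lies highest and Bcl2 lowest in both fractions.

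The comparison of vehicle-treated KP and N organoids asked which members differ between tumour and normal cells before drug. In polysome-associated mRNA the 2 effectors were higher in KP, and the BH3-only gene Bcl2l11 was lower. Bax had 414, 324 and 360 CPM (counts scaled to library size, with TMM factors) in N replicates 1 to 3 and 755, 799 and 562 in KP. The groups did not overlap, and the lowest KP library was 562 against a highest N library of 414. The share of all genes whose groups do not overlap was not counted, here or in later comparisons. Its log2 fold change was 0.95 (SE 0.21, adjusted p = 0.0150, edgeR's quasi-likelihood test), a factor of 1.93.

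Bak1, the second effector, had 163, 165 and 152 CPM in N and 312, 376 and 336 in KP. The 3 N libraries lay within a narrow range and every KP library was far above them. Its log2 fold change was 1.09 (SE 0.19, adjusted p = 0.00606 from edgeR), a factor of 2.13. The joint entry of Bad and Gpr137 gave 84.0, 107 and 133 CPM in N and 214, 231 and 207 in KP, groups that did not overlap either. Its log2 fold change was 1.00 (adjusted p = 0.0189 from edgeR with joint entries kept), and the share of the reads that came from Bad cannot be told apart from that of Gpr137. Whether counting used strand was not stated. Bak1 shares exons with Ggnbp1 on the opposite strand, an entry with 98 to 445 counts per library against at least 8920 for Bak1. Bid shares exons with Bcl2l13 on the opposite strand, an entry with 2244 to 14097 counts per library against 3010 to 16091 for Bid. Bax and Bcl2l2 share exons with Gm45808 and Gm20521 on the same strand, and Bcl2 with D630008O14Rik on the opposite strand. The part of these overlaps in the values was not tested.

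Bcl2l11 encodes BIM, a strong activator of both effectors. It had 38.7, 54.9 and 25.2 CPM in N polysomes and 20.9, 28 and 24.5 in KP, and the groups overlapped because N replicate 3 lay inside the KP range. Its log2 fold change was -0.70 (SE 0.31, adjusted p = 0.138 from edgeR). The call was lost without N vehicle replicate 2 (-0.38, adjusted p = 0.459) and without KP vehicle replicate 1 (-0.59, adjusted p = 0.332). The value was -0.94 (adjusted p = 0.0328) without both lysates of N replicate 3.

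In all, 3 of the 9 tested members were thus called in this comparison (adjusted p under 0.25), 2 higher and 1 lower, where 43.1% of all tested genes were called, 20.9% higher and 22.2% lower. The family's count was near that background. The anti-apoptotic members did not pass: Mcl1 had a log2 fold change of -0.070 (SE 0.19), Bcl2l1 0.29 (SE 0.36), Bcl2 -0.25 (SE 0.52) and Bcl2l2 -0.23 (SE 0.32). Neither did Bid (0.26, SE 0.20) or Bbc3 (0.093, SE 0.26). Leaving out both lysates of N replicate 3, Bcl2l2 was called as well (-0.57, adjusted p = 0.0470), and 4 of 9 members passed against 52.6% of all genes. The calls of Bax and Bak1 held in all 19 other settings tried, with log2 fold changes of 0.85 to 1.06 for Bax and 1.00 to 1.15 for Bak1.

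In total mRNA of the same lysates the effectors did not pass the test. Bax had 400, 387 and 336 CPM in N and 420, 534 and 394 in KP, overlapping groups with a log2 fold change of 0.26 (SE 0.19, adjusted p = 0.445). Bak1 had 160, 188 and 183 CPM in N and 217, 190 and 228 in KP, groups that did not overlap but came within 2 CPM of each other, with a log2 fold change of 0.26 (SE 0.23, adjusted p = 0.535). Bcl2l11 was the 1 member called in total mRNA, with 39.8, 55.4 and 68.6 CPM in N and 25.7, 36 and 30 in KP and a log2 fold change of -0.84 (SE 0.26, adjusted p = 0.0639). The KP libraries all lay below the N libraries, and without both lysates of N replicate 3 the value was -0.64 (adjusted p = 0.238). This was 1 of 9 members, where 28.5% of all tested genes were called.

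The test of the difference between fractions, translational efficiency, asks whether polysome association changed beyond the change in total mRNA. Bak1 was higher in KP by 0.79 (SE 0.29, unadjusted p = 0.0172, adjusted p = 0.433) and Bax by 0.64 (SE 0.23, unadjusted p = 0.0159, adjusted p = 0.433), and no member and 0% of the tested genes were called, although 1296 genes had an unadjusted p under 0.05. The call for the effectors therefore rested on the model. A regression of polysome-associated on total mRNA called both, Bak1 at 1.19 (adjusted p = 0.133) and Bax at 0.89 (adjusted p = 0.161), where 11.1% of genes were called. Without both lysates of N replicate 3, 5 of 9 members were called against 35.8% of genes: Bax (0.72, adjusted p = 0.0800), Bak1 (0.74, adjusted p = 0.0992), Bbc3 (0.67, adjusted p = 0.0983) and Bid (0.32, adjusted p = 0.206) higher in KP, and Bcl2l11 (-0.32, adjusted p = 0.170) lower. Mcl1 was at 0.052 there (SE 0.20).

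**Figure D2:**
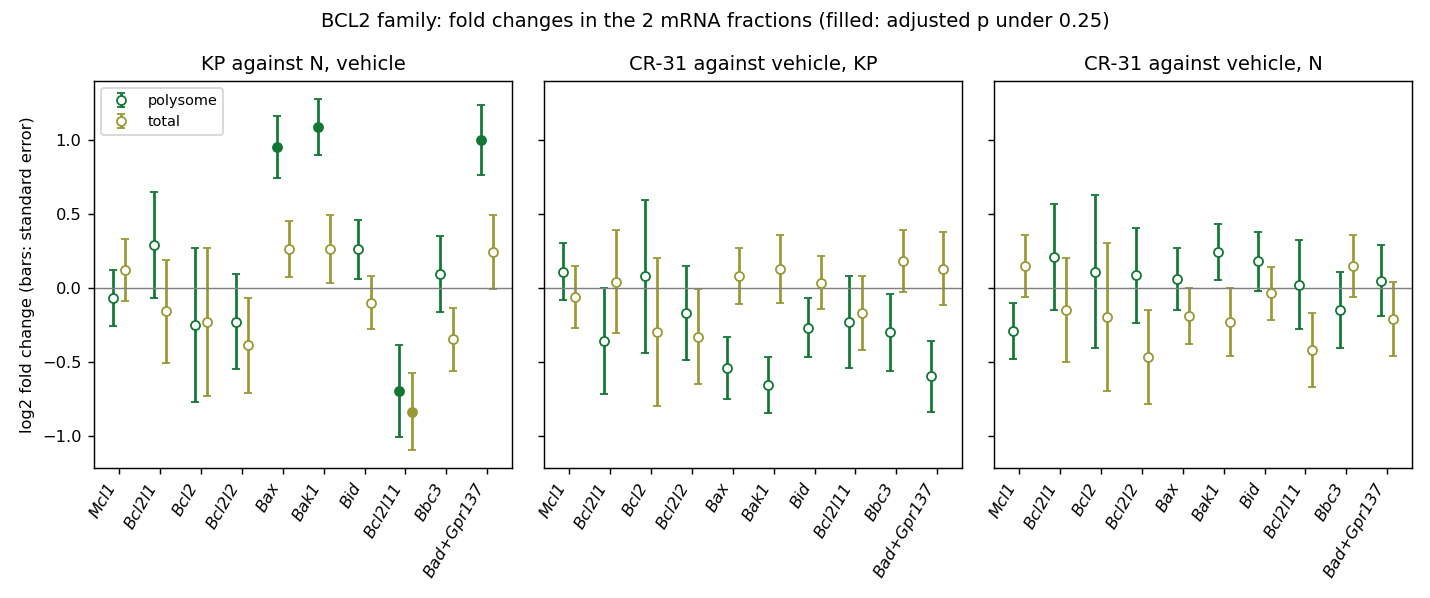
Log2 fold change of each member in polysome-associated and total mRNA with its standard error, filled where the adjusted p was under 0.25 (n = 3 libraries per group). Bax, Bak1 and the Bad and Gpr137 entry stand high in KP polysomes and Bcl2l11 low in both fractions, and no member is filled in the CR-31 comparisons. The comparison of KP with N and that of CR-31 with vehicle in KP share the vehicle-treated KP libraries.

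Polysome and total libraries of one lysate can also be set against each other directly. In vehicle-treated KP organoids, Bax was 0.55 higher on the log2 scale in polysomes than in total mRNA relative to all genes (SE 0.16, adjusted p = 0.0881), Bak1 0.60 (SE 0.21, adjusted p = 0.121) and Bbc3, which encodes the p53 target PUMA, 0.44 (adjusted p = 0.187). Every lysate showed it: the log2 ratios were 0.85, 0.58 and 0.51 for Bax, 0.53, 0.98 and 0.56 for Bak1, and 0.50, 0.64 and 0.45 for Bbc3. In all, 3 of 9 members were called, against 27.5% of all genes. The Bax call was lost without KP vehicle replicate 1 (0.46, adjusted p = 0.359) or 2 (0.58, adjusted p = 0.387), and those of Bak1 and Bbc3 were lost without any 1 of the 3 lysates (adjusted p of 0.278 to 0.514 and of 0.363 to 0.559). Without both lysates of N replicate 3 7 of 9 were called against 47.8% of genes, including Bcl2l1 (0.34, adjusted p = 0.0772) on the higher and Mcl1 (-0.29, adjusted p = 0.127) on the lower side.

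In vehicle-treated N organoids, only Bid was called, at -0.45 (adjusted p = 0.0818), where 15.2% of genes were. The call of Bid was lost without N vehicle replicate 2 (-0.36, adjusted p = 0.507). Bax (-0.086, SE 0.16) and Bak1 (-0.19, SE 0.21) showed no such excess in polysomes. Without both lysates of replicate 3, 3 of 9 members were called against 35.7% of genes, namely Bid (-0.44, adjusted p = 0.0412), Mcl1 (-0.34, adjusted p = 0.175) and Bcl2 (0.71, adjusted p = 0.0585).

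After CR-31, 2 of 9 members were called in each organoid type, against 18.5% of genes in N and 20.2% in KP. Bcl2 was higher in polysomes than in total mRNA in both, by 0.72 in N (adjusted p = 0.151) and 0.82 in KP (adjusted p = 0.0714). Mcl1 was lower in N (-0.52, adjusted p = 0.172) and Bid in KP (-0.34, adjusted p = 0.161). The Mcl1 value in N was -0.27 (adjusted p = 0.746) without N CR-31 replicate 3, and was -0.64 (adjusted p = 0.269), -0.58 (adjusted p = 0.279) and -0.49 (adjusted p = 0.262) without N CR-31 replicates 1 and 2 and KP vehicle replicate 3. It was -0.33 (adjusted p = 0.281) without both lysates of N replicate 3. In KP, the calls of Bcl2 and Bid were lost without KP CR-31 replicate 1 (0.53, adjusted p = 0.551, and -0.27, adjusted p = 0.563), that of Bid also without CR-31 replicate 2 (-0.37, adjusted p = 0.302) or 3 (-0.35, adjusted p = 0.279). In N, the Bcl2 call was lost without any 1 of the 3 CR-31 lysates (adjusted p of 0.279 to 0.383).

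**Figure D3:**
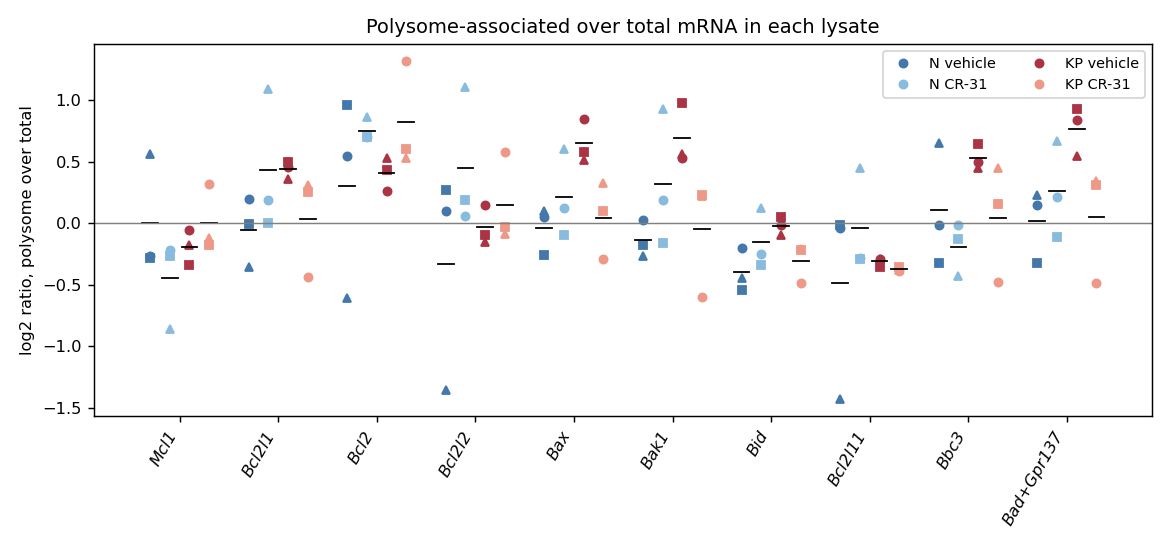
Log2 ratio of polysome-associated over total mRNA in each lysate (TMM-scaled CPM plus 0.5; circle, square and triangle for replicates 1 to 3, line at the mean). Bax, Bak1, Bbc3, Bcl2l1, Bcl2 and the Bad and Gpr137 entry are above 0 in all 3 vehicle-treated KP lysates, and N replicate 3 (triangles) departs from replicates 1 and 2 for most members.

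CR-31 was compared with vehicle to ask whether eIF4A inhibition changes any member on polysomes relative to other mRNAs. Counts were scaled to library size with TMM factors, so a loss from polysomes shared by all mRNAs does not show. The paper reports that CR-31 lowered nascent protein synthesis in KP organoids in a dose-dependent way. In KP polysomes the 2 effectors had lower levels in every CR-31 library than in any vehicle library. Bak1 had 312, 376 and 336 CPM with vehicle and 206, 211 and 232 with CR-31. Bax had 755, 799 and 562 with vehicle and 470, 500 and 481 with CR-31. The groups did not overlap for either gene. Those of Mcl1 did not overlap either, with CR-31 above vehicle and an unadjusted p of 0.572 (edgeR), so a lack of overlap alone says little. The log2 fold changes were -0.66 for Bak1 (SE 0.19, unadjusted p = 0.00490) and -0.54 for Bax (SE 0.21, unadjusted p = 0.0240). Neither passed the correction over all genes (adjusted p = 1.00 for both, edgeR), and 0 members and 0% of the tested genes were called, with 406 genes at an unadjusted p under 0.05.

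Vehicle and CR-31 lysates with the same number deviated together, and with the replicate block both effectors were called in KP polysomes: Bak1 at -0.65 (adjusted p = 0.192) and Bax at -0.53 (adjusted p = 0.193). These were 2 of 9 members, where 19.3% of all genes were called. Paired by replicate number, the log2 ratios of CR-31 over vehicle were -0.60, -0.83 and -0.53 for Bak1 and -0.68, -0.68 and -0.22 for Bax. Within the lane of vehicle replicates 1 and 2 and CR-31 replicate 1 the differences were -0.73 for Bak1 and -0.72 for Bax, and within the other lane -0.60 and -0.20. Bad and Gpr137 together went the same way, with 214, 231 and 207 CPM under vehicle and 126, 137 and 167 under CR-31 (-0.60, unadjusted p = 0.0271, adjusted p = 0.999).

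The anti-apoptotic mRNAs did not pass. Mcl1 had 340, 322 and 321 CPM in KP polysomes with vehicle and 341, 371 and 350 with CR-31. The CR-31 libraries were at or just above the highest vehicle library, and the log2 fold change was 0.11 (SE 0.19, adjusted p = 1.00), or 0.11 (adjusted p = 0.766) with the replicate block. Bcl2l1 had 451, 685 and 397 CPM with vehicle and 319, 500 and 372 with CR-31, overlapping groups. Paired by number, the 3 log2 ratios were -0.50, -0.45 and -0.094, and the value with the block was -0.35 (adjusted p = 0.310). Bcl2 (0.077, SE 0.52) and Bcl2l2 (-0.17, SE 0.32) did not pass either, nor did the BH3-only genes Bid (-0.27, SE 0.20), Bcl2l11 (-0.23, SE 0.31) and Bbc3 (-0.30, SE 0.26).

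A setting chosen after the data were seen combined the replicate block with leaving out both lysates of N replicate 3. It called 7 of 9 members in KP polysomes under CR-31, all lower, against 54.9% of all genes called in either direction. Bak1 (-0.66, adjusted p = 0.00139) and Bax (-0.53, adjusted p = 0.00595) led, and Bcl2l1 (-0.35, adjusted p = 0.0370), Bid (-0.27, adjusted p = 0.0526), Bcl2l11 (-0.25, adjusted p = 0.0545), Bbc3 (-0.30, adjusted p = 0.0691) and Bcl2l2 (-0.18, adjusted p = 0.151) followed. Mcl1 (0.11, adjusted p = 0.480) and Bcl2 (0.080, adjusted p = 0.566) were the members not called. Within the lane of vehicle replicate 3 and CR-31 replicates 2 and 3, Bbc3 (0.17), Bcl2l1 (0.12) and Bcl2l2 (0.035) had the other sign. Bid (-0.17) and Bcl2l11 (-0.12) stayed below 0 there, as did Bak1 and Bax. Within the other lane all of these members were below 0. Paired by number, Bbc3 was at 0.12 in replicate 3. The KP libraries were the same in both fits, which share their estimate of spread with the N libraries.

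**Figure D4:**
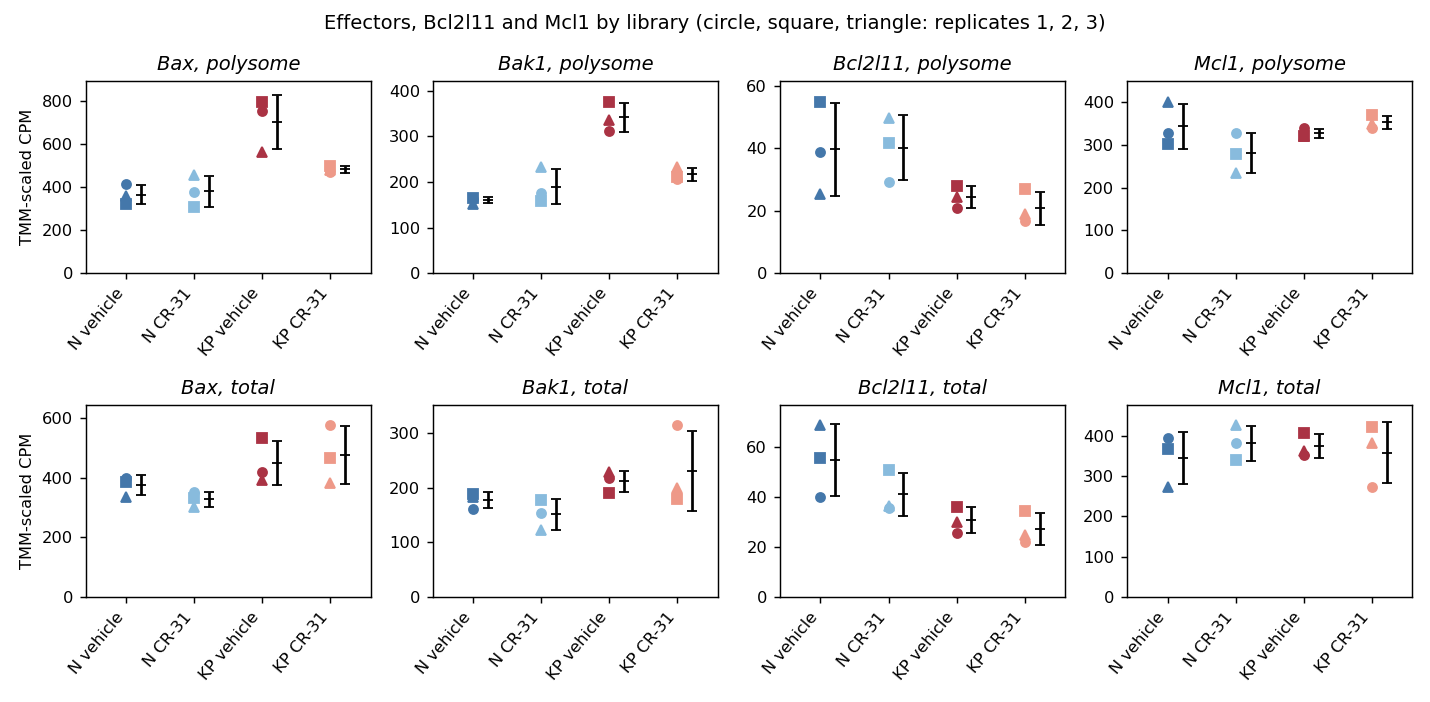
TMM-scaled CPM of Bax, Bak1, Bcl2l11 and Mcl1 by library (symbols for replicates 1 to 3, cross and bars for mean and SD, n = 3) in polysome-associated (top) and total mRNA (bottom). In polysomes, vehicle-treated KP libraries stand above the other 3 groups for Bax and Bak1, while Mcl1 stays between 234 and 402 CPM throughout.

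Total mRNA of KP organoids showed no member past the threshold under CR-31, nor any of the tested genes (0%, with 109 at an unadjusted p under 0.05). Bak1 was at 0.13 (SE 0.23), Bax at 0.081 (SE 0.19) and Mcl1 at -0.064 (SE 0.21). The CR-31 library of replicate 1 was the highest for both effectors, at 314 CPM for Bak1 and 576 for Bax, and without that lysate the values were -0.16 and -0.081.

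In translational efficiency of KP, Bak1 (-0.67, SE 0.29, unadjusted p = 0.0374) and Bax (-0.54, SE 0.23, unadjusted p = 0.0371) again had the lowest unadjusted p of the 9 tested members, and both had an adjusted p of 0.529. No member and 0% of genes were called, against 627 genes at an unadjusted p under 0.05. Without KP CR-31 replicate 1 the values were -0.42 and -0.39. The regression on total mRNA with the replicate block called 3 of 9 members, where 13.8% of genes were called. These were Bak1 (-0.62), Bax (-0.51) and Bcl2l11 (-0.55), each with an adjusted p of 0.240. Bcl2l11 was at 0.00037 (SE 0.33) in the model of both fractions, and the regression set no limit on its slope. Mcl1 was at 0.26 in the model of both fractions (SE 0.27, adjusted p = 0.618) and at 0.056 in that regression (adjusted p = 0.884). With the replicate block and without both lysates of N replicate 3, 6 of 9 members were called in the model of both fractions, against 46.1% of genes. Mcl1 (0.26, adjusted p = 0.244) and Bcl2 (0.49, adjusted p = 0.225) were called higher there, and Bak1 (-0.68, adjusted p = 0.193), Bax (-0.54, adjusted p = 0.193), Bbc3 (-0.43, adjusted p = 0.193) and Bcl2l1 (-0.34, adjusted p = 0.215) lower.

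Without a replicate block and with all lysates kept, CR-31 in N organoids gave no call in polysome-associated mRNA, total mRNA or translational efficiency. This held for the members and for all tested genes (0% in each, with 48, 297 and 328 genes at an unadjusted p under 0.05). With the block and without both lysates of N replicate 3, Bcl2l11 was called lower in N polysomes (adjusted p = 0.0830, edgeR). Its paired log2 ratios were -0.40 in replicates 1 and 2. That setting was chosen after the data were seen, and its counts and shares are given at the end. Bak1 had 163, 165 and 152 CPM in polysomes with vehicle and 176, 159 and 232 with CR-31 (0.24, SE 0.19), and Bax had a log2 fold change of 0.060 (SE 0.21). For both, the CR-31 library of replicate 3 was the highest. Mcl1 had 328, 302 and 402 CPM with vehicle and 328, 280 and 234 with CR-31. Its log2 fold change was -0.29 (SE 0.19, unadjusted p = 0.151). The difference was nearly all in replicate 3, since the paired log2 ratios were -0.00079, -0.11 and -0.78, and without both lysates of that replicate the value was -0.044 (SE 0.16). In translational efficiency, Mcl1 was at -0.47 (SE 0.27) with replicate 3 and at 0.015 without it.

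**Figure D5:**
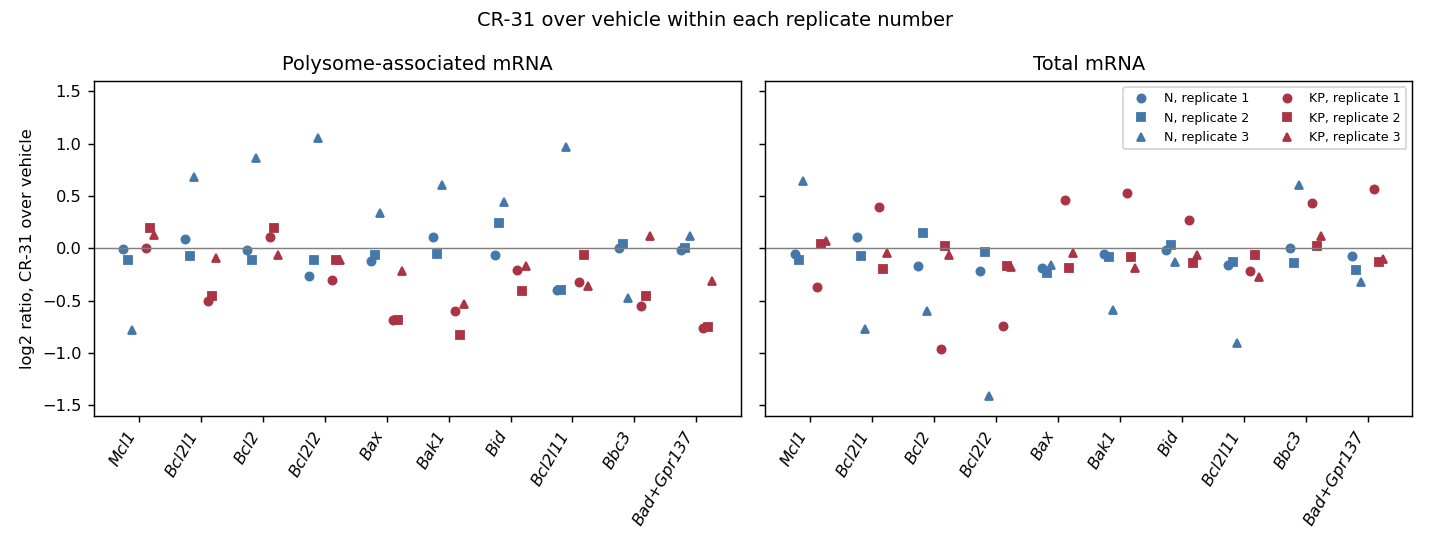
Log2 ratio of CR-31 over vehicle (TMM-scaled CPM plus 0.5) for each replicate number in N and KP, in polysome-associated (left) and total mRNA (right). In KP polysomes the ratios of Bax, Bak1, Bcl2l1, Bcl2l2, Bid, Bcl2l11 and the Bad and Gpr137 entry are below 0 in all 3 replicates, and in N the triangles of replicate 3 lie away from replicates 1 and 2 for most members.

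Whether the response differed between organoid types was tested as the difference of the 2 effects. In polysomes the CR-31 effect on Bak1 was 0.90 lower in KP than in N on the log2 scale (-0.90, SE 0.27, unadjusted p = 0.00601), that on Bax was -0.60 (SE 0.30, unadjusted p = 0.0651) and that on Mcl1 0.40 (SE 0.27, unadjusted p = 0.160). All had an adjusted p of 0.999, and without a replicate block no member and 0% of genes were called in polysomes, total mRNA or translational efficiency. Unadjusted p was under 0.05 for 258, 15 and 1227 genes. In translational efficiency the differences were -1.12 for Bak1 (SE 0.41, adjusted p = 0.419), -0.76 for Bax (SE 0.33, adjusted p = 0.419) and 0.73 for Mcl1 (SE 0.39, adjusted p = 0.419). The Mcl1 difference rested on N replicate 3, since without both of its lysates it was 0.15 (SE 0.21) in polysomes and 0.24 (SE 0.28) in translational efficiency. Those of Bak1 and Bax were then -0.70 and -0.46 in polysomes and -0.76 and -0.64 in translational efficiency, none of them called. With the replicate block as well, 4 of 9 members were called for the difference in polysomes, against 27% of genes, namely Bak1 (-0.69, adjusted p = 0.0933), Bax (-0.44, adjusted p = 0.183), Bid (-0.36, adjusted p = 0.184) and Bcl2l1 (-0.37, adjusted p = 0.249). The block with all lysates kept called none.

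KP and N were also compared under CR-31, where the effectors did not pass in polysomes. Bax was at 0.34 (SE 0.21, adjusted p = 0.373) and Bak1 at 0.19 (SE 0.19, adjusted p = 0.598). Bcl2l11 was the 1 member of 9 called, at -0.95 (SE 0.31, adjusted p = 0.0870), against 25% of genes. Its groups did not overlap, with 29.2, 41.5 and 49.8 CPM in N and 16.7, 26.8 and 19 in KP, and the call was lost without KP CR-31 replicate 1 (-0.81, adjusted p = 0.318). Without both lysates of N replicate 3, 4 of 9 were called against 34.7% of genes, with Bax (0.48, adjusted p = 0.172) and Bak1 (0.36, adjusted p = 0.169) higher and Bcl2l11 (-0.77, adjusted p = 0.101) and Bcl2l2 (-0.56, adjusted p = 0.0871) lower in KP.

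In total mRNA under CR-31, 3 of the 9 members were called, against 39.9% of genes. Bax (0.54, SE 0.19, adjusted p = 0.0938) and Bak1 (0.61, SE 0.23, adjusted p = 0.103) were higher in KP and Bcl2l11 (-0.59, SE 0.26, adjusted p = 0.146) lower. All 3 calls were lost without KP CR-31 replicate 1 (0.37, 0.32 and -0.46, adjusted p of 0.302, 0.377 and 0.395). That of Bak1 was also lost without N CR-31 replicate 3 (0.48, adjusted p = 0.261) and without both lysates of N replicate 3 (0.48, adjusted p = 0.291), and that of Bcl2l11 without N CR-31 replicate 2 (-0.41, adjusted p = 0.368) or KP CR-31 replicate 3 (-0.53, adjusted p = 0.266). No member was called in translational efficiency between KP and N under CR-31, nor any gene (0%, with 556 genes at an unadjusted p under 0.05).

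Other genes around the family moved between organoid types, mostly downward among further relatives of the BCL2 family. Of 12 tested relatives, 8 were called in vehicle-treated polysomes, 2 higher and 6 lower in KP, where 43.1% of all genes were called, 20.9% higher and 22.2% lower, with a median log2 fold change of -0.59 against -0.034 over all genes. The largest changes were in Bik, a BH3-only gene (-3.21, adjusted p = 0.0425), Bmf, a BH3-only gene tied to loss of attachment (-2.40, adjusted p = 0.0257), and Bcl2l15 (-2.22, adjusted p = 0.156). Bmf had 19.4, 53.3 and 30.2 CPM in N and 3.51, 4.63 and 11.3 in KP, without overlap. Bik had 1.21, 8.49 and 17.9 CPM in N against 1.16, 1.11 and 0.720 in KP, so N replicate 1 was close to KP, and without both lysates of N replicate 3 the fold changes were -2.29 for Bik, -2.50 for Bmf and -1.63 (adjusted p = 0.276) for Bcl2l15.

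Of the 5 caspase inhibitors, 3 were lower in KP polysomes and none higher (median -0.74), against 22.2% of all genes lower. Birc3, which encodes the ubiquitin ligase cIAP2, led with 37.2, 34 and 51.8 CPM in N against 8.55, 9.85 and 10.5 in KP (-2.09, SE 0.23, adjusted p = 0.000629). Birc2 (cIAP1) was at -0.98 (adjusted p = 0.0465) and Cflar, which encodes the caspase-8 inhibitor FLIP, at -0.74 (adjusted p = 0.222). In total mRNA, 2 of the 5 were lower in KP and 1 higher, where 28.5% of all genes were called (edgeR). Birc3 was at -1.94 (adjusted p = 0.00291), Birc2 at -0.78 (adjusted p = 0.183) and Birc6 at 1.05 (adjusted p = 0.189). Without both lysates of N replicate 3, Birc2 (-0.80, adjusted p = 0.313) and Birc6 (0.88, adjusted p = 0.408) were not called in total mRNA. Of the 11 tested genes of the apoptosome, caspases and mitochondrial factors, 4 were called in KP polysomes, all higher (median 0.10), a share below the 43.1% of all genes called. They included Fadd, the adaptor of death receptors, at 0.97 (adjusted p = 0.0145), Cycs, cytochrome c, at 0.72 (adjusted p = 0.0962) and the channel gene Vdac1 at 0.45 (adjusted p = 0.149). Of 4 tested genes of MCL1 protein turnover, Btrc was the 1 called (-0.78, adjusted p = 0.0792). Leaving out both lysates of N replicate 3, the values were -1.89 for Birc3, -1.08 for Birc2, -1.13 for Cflar (adjusted p = 0.0143), 0.98 for Fadd, 0.78 for Cycs, 0.49 for Vdac1 and -0.63 for Btrc, all still called, and -1.78 (adjusted p = 0.0144) for Birc3 in total mRNA.

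Without the replicate block, none of these 32 further genes was called for CR-31 against vehicle in either organoid type or fraction, where no tested gene was. With the block, 9 of the 32 were called in KP polysomes, 7 higher and 2 lower, against 19.3% of all genes, and 15 without both lysates of N replicate 3 as well, against 54.9%. The genes whose level was most like that of Mcl1 were Arpc2 (Pearson's r = 0.915), Actr3 (0.908), Rpap3 (0.886), Hsd17b4 (0.877) and Wdr35 (0.874) over the 12 total libraries, and Ezr (0.935), Fig4 (0.912), Hdac1 (0.906), Psmd11 (0.881) and Mta3 (0.876) over the 12 polysome libraries. These are descriptions across libraries that share lysates, lanes and groups, and no gene was in both lists.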

How the data were processed

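Polysome-associated and total mRNA (TruSeq libraries, paired reads) were aligned by the authors with HISAT2, and the deposited table gives, per RefSeq gene, whole read counts and RPKM that the authors computed with RPKMforgenes after multi-mapped reads were discarded. The sources name hg38 as the build while the entries are mouse genes, and whether counting used strand is not given in the sources used here. RPKM were used for levels between genes.

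The counts of 11438 genes with 1 symbol and at least 1 count in each of 24 libraries were fitted with edgeR 4.0.16 (quasi-likelihood test, TMM scaling, R 4.3.3) over all groups of a fraction, or over both fractions for translational efficiency and polysome against total mRNA. A gene was called at a Benjamini-Hochberg adjusted p under 0.25, the FDR threshold in the study's methods. The study also set limits on effect size and on regression slopes in its own model (anota2seq), which were not applied here. Alternatives used RLE or upper-quartile scaling, no filter on low counts, DESeq2 1.42.0, regression on total mRNA with variances moderated by limma 3.58.1, a lane term, a replicate block, an adjusted p of 0.05 and leaving out each lysate. Settings that kept joint entries, or left out both lysates of N replicate 3 with and without the block, were chosen after the data were seen.

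Members and gene lists (other BCL2-family genes, apoptosome with caspases and mitochondrial factors, caspase inhibitors, MCL1 protein turnover) were chosen with earlier results of these data known. All members are named, and from each list up to 3 called genes with the largest changes. Same-numbered vehicle and CR-31 samples deviated together (r = 0.54 to 0.91 in N, 0.37 to 0.87 in KP), those of N and KP did not (r = -0.13 to 0.30 under vehicle, -0.18 to 0.19 under CR-31), so numbers were taken as pairs within an organoid type. Replicates differed beyond sampling noise (chi-square per gene 251 to 1510). The tests were run on simulated polysome counts with 200 changed genes of 11438. In the data, 43.1% of genes were called for KP against N in vehicle polysomes. Shares called with that many changed genes were not simulated and can differ. Of genes with a log2 change of 1, 31% were called for KP against N and 30% for CR-31 in KP. At a log2 change of 2 these shares were 74% and 80%. A member that did not pass is therefore not shown to be unchanged. Total counts per library set the precision, and counting error was small beside the spread between lysates. The 5′-UTRs came from GENCODE M21 on GRCm38, taking, of the transcripts matched to an entry's RefSeq accessions, the one with the longest 5′-UTR. One item of the KP genotype is not reported here.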

Additional observations from a re-analysis of the deposited data

Results flagged for a closer look

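For Mcl1 in polysome-associated mRNA, the paired log2 ratios of CR-31 over vehicle were below 0 in all 3 N replicates (-0.00079, -0.11 and -0.78) and above 0 in all 3 KP replicates (0.0023, 0.20 and 0.13), so the effect had opposite signs in the organoid types. The effect in KP exceeded that in N by 0.40 on the log2 scale (SE 0.27), and the test of this difference did not pass (unadjusted p = 0.160, adjusted p = 0.999, edgeR). Replicate 1 was within 0.0023 of 0 in both types, and without both lysates of N replicate 3 the effect in N was -0.044. Groups of 3 libraries are too small for the test of outlying samples.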

How the results depend on the processing

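The count of members called, out of 9, depended on settings as follows. At an adjusted p of 0.05 in place of 0.25, no member (0) was called between KP and N in CR-31 polysomes, in total mRNA under vehicle or under CR-31, or for polysome-associated against total mRNA in any of the 4 groups. DESeq2 called 2 members for polysome against total mRNA in N vehicle (19% of all genes), and no filter on low counts left 1 in KP CR-31 (11.5%). Regression on total mRNA called 2 (11.1%) in translational efficiency of KP against N under vehicle.

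Samples with the same number were paired within an organoid type. With the replicate block, 2 members were called for CR-31 in KP polysomes (19.3% of all genes), and regression with the block called 3 (13.8%) in translational efficiency. The block without both lysates of N replicate 3 was chosen after the data were seen. It called 7 in KP polysomes (54.9% of all genes) and 1, Bcl2l11, in N polysomes (15%). It also called 4 for the difference between KP and N in polysomes (27%) and 6 in translational efficiency of KP (46.1%). In that last fit the Mcl1 effect in N was -0.082 in total mRNA and 0.015 in translational efficiency. The block changed no other count of members beyond 1.5 times. A block shared by N and KP was also run, although same-numbered N and KP samples did not deviate together.

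Without both lysates of N replicate 3 and no block, also chosen after the data were seen, KP against N called 4 members in CR-31 polysomes (34.7% of all genes) and 5 in translational efficiency under vehicle (35.8%), and polysome against total mRNA called 3 in N vehicle (35.7%) and 7 in KP vehicle (47.8%). The Mcl1 effect of CR-31 in N turned to -0.081 in total mRNA and to 0.015 in translational efficiency.

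Leaving out 1 lysate at a time moved the share of all genes called as well, given here beside each count. For KP against N the count ran from 2 to 5 in vehicle polysomes (28.5% to 48.1% of genes, with 5 and 41.5% without N vehicle replicate 1), 0 to 3 in CR-31 polysomes (9.48% to 32.3%, with 0 and 9.48% without KP CR-31 replicate 1), 1 to 2 in vehicle total mRNA (14.1% to 32.9%, with 2 and 20.5% without KP vehicle replicate 2), 0 to 3 in CR-31 total mRNA (18.6% to 42.3%, with 0 and 18.6% without KP CR-31 replicate 1) and 0 to 2 in translational efficiency under vehicle (0% to 18.8%, with 2 and 18.8% without N vehicle replicate 3). For the difference in translational efficiency it ran from 0 to 3 (0% to 16.6%, the highest without N CR-31 replicate 2). For polysome against total mRNA it ran from 0 to 2 in N vehicle (1.75% to 22.1%), 0 to 4 in N CR-31 (4.27% to 30.2%), 0 to 5 in KP vehicle (0.481% to 37.5%) and 0 to 3 in KP CR-31 (4.03% to 26.8%). The Mcl1 effect in KP total mRNA ran from -0.20 to 0.098, with 0.0015 without KP vehicle replicate 2, that in N total mRNA from 0.0050 to 0.26 and that in N translational efficiency from -0.61 to -0.19. The causes were not tested. Over all settings, members not called gave 3124 values, of which 206 had the other sign and 71 were called.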
